A study of Arabidopsis thaliana with 8 samples.

Results

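The WRKY transcription factors were followed in 5-day-old Arabidopsis seedlings of 2 genotypes grown with or without lincomycin. Members were the loci with a deposited symbol made of WRKY followed directly by 1 to 3 digits, which gave 72 of the 36917 loci in the tables. Of these, 71 carried such a symbol plainly and RRS1 carried it only as ATWRKY52, so RRS1 is called WRKY52 here, as TTG2 is called WRKY44 and ABO3 WRKY63.

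The seedlings were Col-0 wild type or irx3-2, a mutant of IRX3, the gene of the secondary wall cellulose synthase subunit CESA7. Each genotype was grown on MS medium with 1% sucrose, with no inhibitor or with 50 µg/ml lincomycin, an inhibitor of translation in plastids, at 22 °C under continuous white light of 100 µmol photons per square metre and second. RNA of whole seedlings was sequenced as 2 libraries in each of the 4 groups: wild type on MS, wild type on lincomycin, irx3-2 on MS and irx3-2 on lincomycin. Whether libraries of one group came from separate plates of seedlings is not given in the labels, so the p-values measure only the spread between libraries, which may be technical. What kind of lesion irx3-2 carries is not given in the labels.

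WRKY proteins bind DNA through a domain with a conserved heptapeptide, which names the family, followed by a zinc finger, and their best known binding sequence is the W box. They are best known in Arabidopsis for the control of pathogen defence, where MAP kinases, VQ proteins and calmodulin act on some of them, and for roles in senescence, heat and abscisic acid responses, phosphate uptake and trichome development. Many WRKY genes are themselves switched on quickly by stress, and WRKY40 and WRKY63 are known regulators of nuclear genes that respond to damage of mitochondria or plastids.

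The upstream sequences are given for the 4 members whose level differed between the genotypes on lincomycin, WRKY70, WRKY33, WRKY40 and WRKY44, since a W box there would be a place where WRKY proteins can bind. Each is the 250 bases before the annotated gene start, 5′ to 3′ on the gene's strand, from RefSeq TAIR10.1, with W boxes in capitals. The windows are chr3:20910624-20910873 on the minus strand for WRKY70, chr2:16107985-16108234 on the plus strand for WRKY33, chr1:30383311-30383560 on the plus strand for WRKY40 and chr2:15644561-15644810 on the plus strand for WRKY44.
WRKY70: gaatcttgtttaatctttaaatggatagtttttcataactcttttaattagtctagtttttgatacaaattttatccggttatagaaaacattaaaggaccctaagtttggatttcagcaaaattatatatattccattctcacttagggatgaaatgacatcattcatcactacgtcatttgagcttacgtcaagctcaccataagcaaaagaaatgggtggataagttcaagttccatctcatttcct
WRKY33: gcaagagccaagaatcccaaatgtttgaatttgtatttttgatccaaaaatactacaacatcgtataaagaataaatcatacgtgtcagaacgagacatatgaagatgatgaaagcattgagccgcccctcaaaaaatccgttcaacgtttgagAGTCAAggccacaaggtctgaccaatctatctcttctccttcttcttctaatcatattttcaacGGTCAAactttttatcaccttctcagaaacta
WRKY40: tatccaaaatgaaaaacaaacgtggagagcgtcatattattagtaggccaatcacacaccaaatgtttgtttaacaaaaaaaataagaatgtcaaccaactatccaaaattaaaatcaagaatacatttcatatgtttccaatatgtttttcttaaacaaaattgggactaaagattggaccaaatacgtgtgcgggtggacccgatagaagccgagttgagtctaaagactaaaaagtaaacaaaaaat
WRKY44: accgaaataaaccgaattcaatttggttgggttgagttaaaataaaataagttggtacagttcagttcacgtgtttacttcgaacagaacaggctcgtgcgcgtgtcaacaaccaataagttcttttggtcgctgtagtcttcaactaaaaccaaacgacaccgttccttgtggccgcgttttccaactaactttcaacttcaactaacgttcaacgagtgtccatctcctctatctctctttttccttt

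The W box was searched as TTGACC or TTGACT on both strands. The WRKY33 window held 2, at 32 and 96 bases before the gene start, both on the opposite strand. The windows of WRKY70, WRKY40 and WRKY44 held none, though each held the 5-base core TTGAC at 1 place. Over the whole family, 25 of 72 members (34.7%) had a W box in this window, against 28.4% of the 27438 protein-coding genes. Windows with at least 2 W boxes belonged to 10 members (13.9%), against 6.18% of all. These are matches of letters, not measured binding sites.

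To be tested, a gene needed 10 or more normalized counts in 2 or more libraries, which held for 52 of the 72. Normalized counts are reads divided by 1 size factor per library, and the tests were run with limma on log2 of the normalized count plus 1 over the 20251 genes that met this rule. WRKY41 and WRKY64 had no read in any library, although 41.7% of the exon bases of WRKY41 are covered by another gene, and how reads in such overlaps were counted is not given in the sources used here. The other 18 had reads but too few. One of them, WRKY24, reached 46.6 in wild type replicate 3 on MS, with 9.19 in the other library of that group and at most 9.64 in the remaining groups. Of the tested members, 9 reached 10 normalized counts only on MS and none only on lincomycin, so these 9 (WRKY9, WRKY31, WRKY42, WRKY43, WRKY49, WRKY56, WRKY61, WRKY72 and WRKY75) entered through the medium in which they were high.

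The libraries held 15032240 to 19488440 reads. Plastid transcripts took 54.1 to 58.1% of reads on MS and 18.8 to 20.7% on lincomycin, so nuclear genes were read by 6656099 to 8164824 reads on MS and 12364222 to 13793986 on lincomycin. There, 1 read stood for 1.38 to 1.77 normalized counts on MS and for 0.588 to 0.710 on lincomycin, and low members were measured less precisely on MS. The green shoot genes LHCB1.2, RBCS1A and PSBO1 were high in every MS library (their sum was 240096 to 403384 normalized counts) and lower on lincomycin (22796 to 25535), and the 9 root genes summed to 451 to 783 normalized counts, so transcripts of both shoot and root were present in every group. CESA7 transcript was found in both genotypes, with 265 and 278 normalized counts in wild type and 712 and 711 in irx3-2 on MS, so it does not mark the mutant by its absence. By limma it was called higher in irx3-2 than in wild type on MS (log2 1.39) and on lincomycin (log2 0.67).

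Per kilobase of exon the members spanned a wide range, and the medians differed between the structural subgroups of the family. The highest were WRKY25, a heat stress regulator, at 252 normalized counts per kb over the 8 libraries, WRKY39, a calmodulin-binding member of subgroup IId with a role in heat responses, at 222, and WRKY3, a group I regulator of resistance to necrotrophic fungi, at 218. The median per kb was 129 for the 7 genes of subgroup IId and 66.1 for the 14 of group I, against 8.85 for the 18 of IIc, 6.15 for the 8 of IIb and 1.11 for the 14 of group III. Only 4 of the 14 group III genes could be tested, compared with every gene of subgroups IIa (3), IIb (8), IId (7) and IIe (8). Group III holds many stress-induced genes, and its zinc finger is of the C2HC type in 13 of its 14 members. WRKY52 is the other one. Of the 14 group I genes, 12 encode 2 copies of the heptapeptide, whereas WRKY10 and WRKY19 encode 1.

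**Figure D1:**
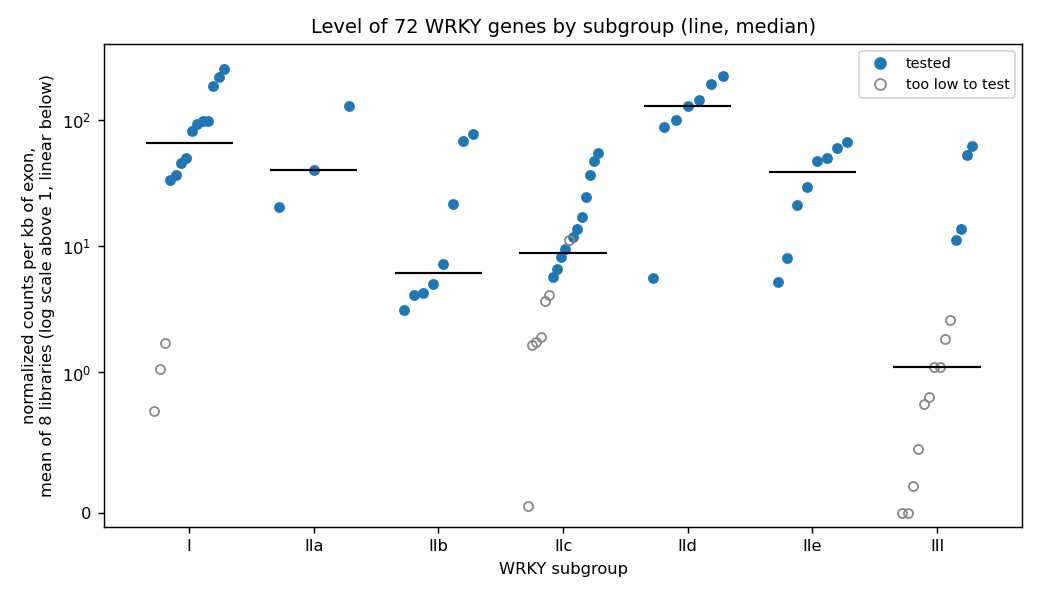
Level of each of the 72 WRKY genes by subgroup, as the mean of 8 libraries in normalized counts per kb of exon, on an axis that is logarithmic above 1 and linear below. Filled points were tested, open points were too low, and the line is the median, which was highest in subgroup IId (129) and lowest in group III (1.11).

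WRKY3 and WRKY39 varied little between libraries. WRKY3 had 457 and 399 normalized counts in wild type on MS, 496 and 541 in wild type on lincomycin, 490.2 and 391 in irx3-2 on MS and 568 and 491 in irx3-2 on lincomycin. WRKY39 lay between 448 and 538 in all 8 libraries. In both genes the groups overlapped or lay close together. Neither gene passed the test in any comparison.

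The first question was which WRKY genes respond to lincomycin. In wild type, 17 of the 52 tested members changed on lincomycin, 9 upward and 8 downward. That is 32.7% of the tested members, beside 29.2% of all tested genes (12.0% higher and 17.2% lower), so the share called in the family was close to the background. The median log2 change was −0.06 in the family and 0.02 in all genes. In irx3-2, 17 members changed, 6 upward and 11 downward, beside a background of 33.8% (15.8% higher and 18.0% lower), with a median of −0.16 against 0.04. The members called in both genotypes numbered 10, which is 58.8% of each list. Over all tested genes, 4183 were called in both, which is 70.6% of the calls in wild type and 61.2% of those in irx3-2. Of the 10 members, WRKY18, WRKY25, WRKY26 and WRKY48 rose in both genotypes, and WRKY6, WRKY7, WRKY9, WRKY11 and WRKY56 fell in both. WRKY70 rose in wild type and fell in irx3-2.

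**Figure D2:**
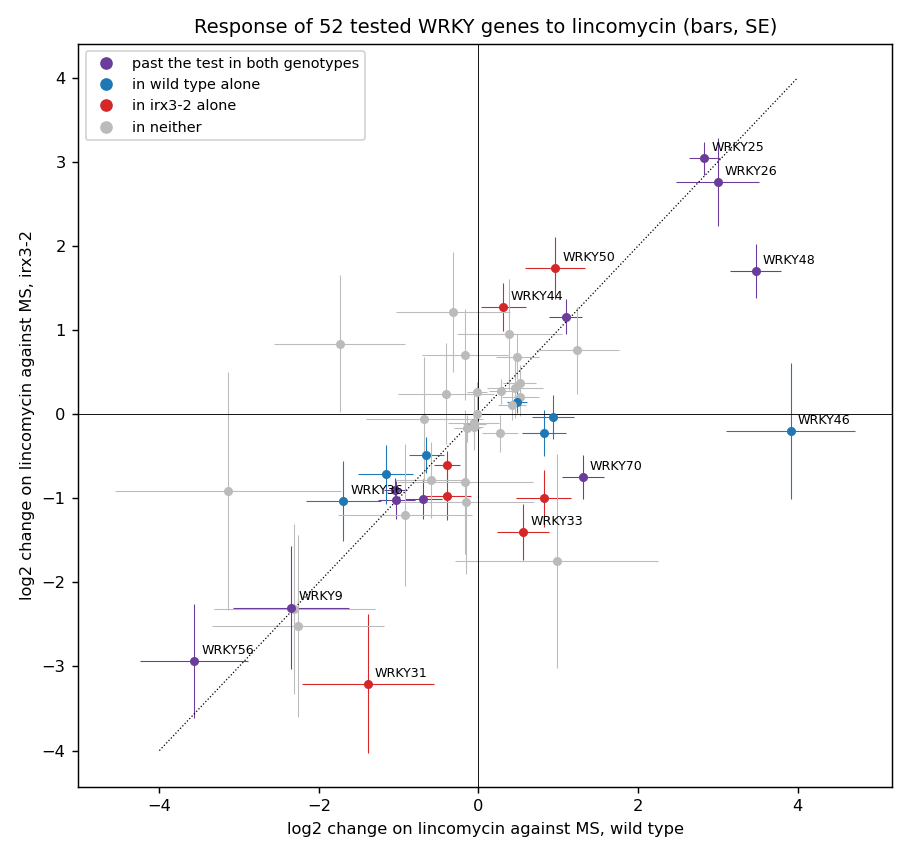
Log2 change on lincomycin against MS in wild type (horizontal) and in irx3-2 (vertical) of the 52 tested WRKY genes, with standard errors as bars and the line of equal change dotted. WRKY25, WRKY26 and WRKY48 lie at the upper right, WRKY56 and WRKY9 at the lower left, and WRKY70 lies at 1.30 in wild type and −0.75 in irx3-2.

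Large rises were seen in genes of groups I, IIc and III. WRKY25, which with WRKY26 and WRKY33 is known for heat tolerance, had 141 and 96.0 normalized counts in wild type on MS and 783 and 886 on lincomycin. In irx3-2 it had 81.2 and 99.1 on MS and 771 and 721 on lincomycin. The groups on the 2 media were far apart in both genotypes, and the change was 7.11-fold in wild type (log2 2.83, SE 0.19, limma adjusted p = 1.33e-06) and 8.23-fold in irx3-2 (log2 3.04, SE 0.19, adjusted p = 7.11e-07). WRKY26 started from a lower level, 19.9 and 5.82 in wild type and 13.8 and 10.6 in irx3-2 on MS, and reached 103 and 86.7 in wild type and 67.4 and 114 in irx3-2 on lincomycin. Its rise was 3.0 (SE 0.52) in wild type and 2.76 (SE 0.52) in irx3-2 on the log2 scale, with limma adjusted p = 0.00145 and 0.00215. The 3 heat tolerance genes did not move as a set, since WRKY33 did not pass the test in wild type and fell in irx3-2.

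WRKY48, a stress-induced repressor of basal resistance to Pseudomonas, had 26 and 13.1 normalized counts in wild type on MS and 221 and 211 on lincomycin. In irx3-2 it had 38.6 and 46.0 on MS and 148 and 131 on lincomycin. It rose in both genotypes, by 3.47 (SE 0.32, limma adjusted p = 1.54e-05) and 1.70 (SE 0.32, adjusted p = 0.00214) on the log2 scale. The wild type libraries were lower on MS and higher on lincomycin than those of irx3-2, and the difference between the 2 responses, −1.77 (SE 0.45), did not pass limma's test after adjustment (adjusted p = 0.122). DESeq2 on reads recovered from the normalized counts called it (adjusted p = 0.0483).

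Subgroup IIa consists of WRKY18, WRKY40 and WRKY60, which bind one another, repress parts of the defence response and act in abscisic acid signalling. WRKY18 had 178 and 160.0 normalized counts in wild type and 124 and 196 in irx3-2 on MS, and 344 and 377 in wild type and 376 and 325 in irx3-2 on lincomycin. It rose in both, 2.13-fold in wild type (log2 1.09, SE 0.21, limma adjusted p = 0.00274), and by log2 1.16 (SE 0.21, adjusted p = 0.00162) in irx3-2. WRKY60 lay between 23.3 and 39.4 in all libraries, and its log2 changes of 0.46 and 0.31 did not pass. WRKY40 also lay higher on lincomycin in wild type (log2 0.82, not past the test), so the changes of the 3 partners in wild type were all upward. In irx3-2 WRKY40 fell, unlike WRKY18 and WRKY60, a call lost in some fits without 1 library. The response of WRKY40 was not shown to differ between the genotypes, and its values are given with the genotype differences.

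The group III gene WRKY46, which acts in basal resistance and drought responses, was at the edge of detection in wild type on MS, with 6.13 normalized counts in 1 library (4 reads) and 0 in the other. It had 35.3 and 43.6 in wild type on lincomycin, 16.5 and 17.7 in irx3-2 on MS and 12.8 and 17 in irx3-2 on lincomycin. The level in wild type rose by 3.91 (SE 0.81, limma adjusted p = 0.00425) on the log2 scale, a size that depends on the library at 0. It was 2.50 without that library (replicate 3), 5.33 without the other and 2.57 with a pseudocount of 5. The call was lost without wild type replicate 3 on lincomycin (3.77, adjusted p = 0.0527). In irx3-2 the log2 change was −0.20 (adjusted p = 0.871), and the difference between the genotypes' responses, −4.12 (SE 1.15), had an adjusted p of 0.150.

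WRKY50, a salicylate-responsive gene that also represses jasmonate responses, had 32.2 and 32.0 normalized counts in wild type on MS, 48.8 and 82.4 in wild type on lincomycin, 15.1 and 12.4 in irx3-2 on MS and 50.4 and 45.7 in irx3-2 on lincomycin. It rose in irx3-2, by 1.74 (SE 0.37, limma adjusted p = 0.00464). In wild type the log2 change was 0.96 (adjusted p = 0.0779), and the 2 changes were not shown to differ (difference 0.77, SE 0.53, adjusted p = 0.603). WRKY50 is 1 of 3 members, with WRKY51 and WRKY59, whose heptapeptide departs from the standard one. Smaller rises in wild type were those of WRKY47 (0.94), WRKY57 (0.82), a drought tolerance gene, and WRKY21 (0.48).

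The largest fall in wild type was that of WRKY56, a IIc gene with 29.1 and 27.6 normalized counts in wild type and 20.7 and 14.2 in irx3-2 on MS. On lincomycin it had 1.77 and 1.23 in wild type and 1.42 and 1.31 in irx3-2, each resting on 2 or 3 reads. The log2 change was −3.56 (SE 0.68, limma adjusted p = 0.00258) in wild type and −2.94 (SE 0.68, adjusted p = 0.00688) in irx3-2. WRKY56, WRKY9 and WRKY31 are among the 9 members that were tested because they were high on MS, so that they lay lower on lincomycin was partly fixed by the rule for testing.

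Subgroup IIb, which includes the phosphate transport and senescence regulator WRKY6, had 3 of its 8 members fall in each genotype, while WRKY47 rose in wild type. Of all tested genes, 17.2% were lower in wild type and 18.0% in irx3-2. With so few genes per subgroup, these shares were not compared by a test. Of the 8, 5 (WRKY9, WRKY31, WRKY42, WRKY61 and WRKY72) reached 10 normalized counts only on MS, so their lower level on lincomycin was partly fixed by the rule for testing. WRKY9, which is known for suberin formation in the root, had 18.4 and 14.5 normalized counts in wild type and 11 and 23.0 in irx3-2 on MS, and 2.35 and 2.46 in wild type and 1.42 and 3.92 in irx3-2 on lincomycin. It fell by 2.35 (SE 0.73, limma adjusted p = 0.0337) and by 2.30 (SE 0.73, adjusted p = 0.0328), and each call was lost in 4 of the 8 fits without 1 library. WRKY36, a repressor of HY5 transcription in the UV-B response, had 56.7 and 80.02 in wild type on MS and 20.01 and 20.3 on lincomycin, and 41.3 and 60.2 in irx3-2 on MS and 14.2 and 39.9 on lincomycin. It fell in wild type (−1.69, SE 0.48, adjusted p = 0.0214), whereas in irx3-2 the change of −1.03 had an adjusted p of 0.120. WRKY31 had 29.1 and 10.2 in wild type on MS and 5.88 and 6.15 on lincomycin, and 19.3 and 14.2 in irx3-2 on MS and 0 and 2.61 on lincomycin. It fell in irx3-2 by 3.21 (SE 0.82, adjusted p = 0.0122), but not past the test in wild type (−1.39, adjusted p = 0.239).

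In subgroup IId, whose proteins bind calmodulin, WRKY7, WRKY11 and WRKY17 fell in wild type and WRKY7, WRKY11 and WRKY15 in irx3-2, while WRKY21 rose in wild type. That is 3 of 7 members lower in each genotype, beside 17.2% of all tested genes in wild type and 18.0% in irx3-2. WRKY7 had 379.9 and 403 normalized counts in wild type on MS and 202 and 178 on lincomycin, and 328 and 354 in irx3-2 on MS and 184 and 179.7 on lincomycin. Its groups on the 2 media did not overlap, and it fell by 1.04 (SE 0.14, limma adjusted p = 0.000299) and 0.90 (SE 0.14, adjusted p = 0.000707). WRKY11 and WRKY17 are negative regulators of basal resistance, and WRKY15 acts in osmotic stress and mitochondrial signalling. Subgroup IIe gave 1 fall among its 8 members in each genotype, beside the same shares of all tested genes. In wild type it was WRKY65, with 149 and 121 on MS and 59.4 and 59.0 on lincomycin (−1.16, SE 0.35, adjusted p = 0.0281). In irx3-2 WRKY65 had 46.8 and 99.1 on MS and 36.9 and 45.7 on lincomycin (−0.72, adjusted p = 0.136). There the fall was that of WRKY22 (−0.97, SE 0.29, adjusted p = 0.0247), which with WRKY29 acts below the flagellin-activated MAP kinases.

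Some of these calls were lost when 1 library was left out. Fewer members were called in wild type without its replicate 1 or 3 on lincomycin, and in irx3-2 without its replicate 2 on lincomycin. Such a fit leaves 1 library in a group and fewer degrees of freedom for every tested gene. How many calls were lost over all tested genes is not given here. The weakest calls in wild type were those of WRKY11, lost in 6 of the 8 fits without 1 library (limma adjusted p up to 0.315), WRKY57, lost in 5 (up to 0.330), and WRKY65, lost in 4 (up to 0.134). WRKY17, WRKY21 and WRKY36 were each lost in 3 fits, all of them without a library of wild type, and WRKY47 in 2. In irx3-2 the calls of WRKY6, WRKY11 and WRKY31 were each lost without replicate 2 on lincomycin (adjusted p up to 0.0983). WRKY18, WRKY25, WRKY26, WRKY48 and WRKY56 in both genotypes and WRKY50 in irx3-2 were called in all of the 17 alternatives that were run. The marker genes of root and trichome moved as well: of the 7 root genes tested, EXPA7 (−3.61), EXPA18 (−4.72) and SCR (−0.49, lost in 6 of the 8 fits without 1 library) fell in wild type and EXPA7 (−2.50, lost in 2) in irx3-2, and the summed trichome genes went from 57.8 to 127 normalized counts on MS to 18.8 to 27.7 on lincomycin. Their part in the WRKY changes was not tested, and in whole seedlings fewer cells of a type and less RNA per cell cannot be told apart.

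**Figure D3:**
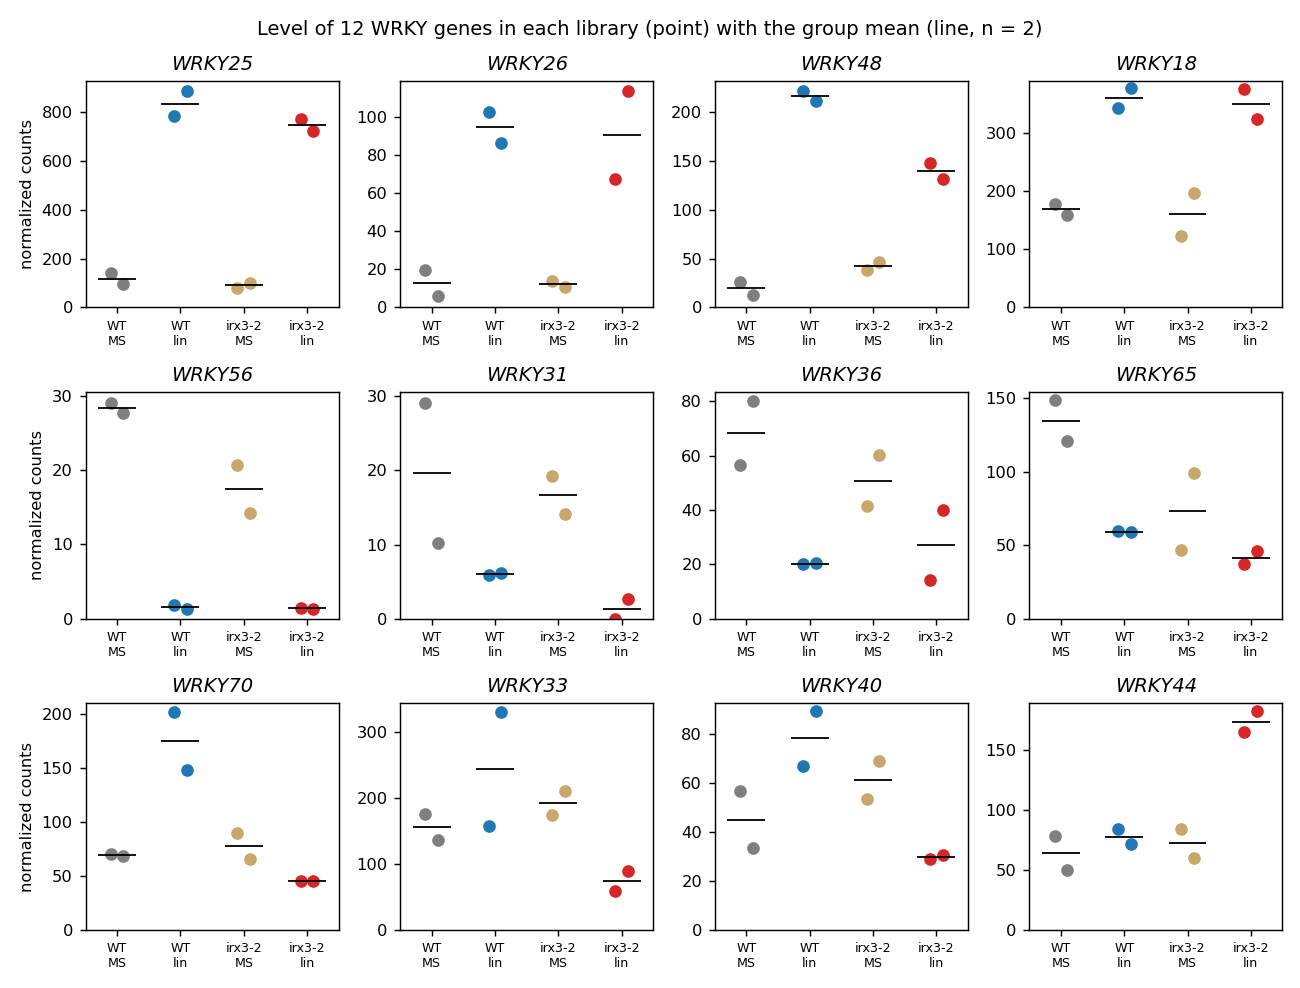
Normalized counts (linear axis from 0) of 12 WRKY genes in each of the 8 libraries, with a point per library and a line at the mean of the 2 libraries of a group; WT, wild type; lin, lincomycin. The upper row rose on lincomycin in both genotypes, the middle row shows genes that fell in at least 1 genotype, and in the lower row WRKY70, WRKY33 and WRKY40 are lower and WRKY44 is higher in irx3-2 than in wild type on lincomycin.

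The next question was whether the mutant differs from wild type. On MS no member passed the test, beside 0.217% of all tested genes (0.158% higher and 0.0593% lower in irx3-2). At an unadjusted p below 0.05 there were 6 members (WRKY46, WRKY48 and WRKY57 higher and WRKY50, WRKY53 and WRKY65 lower in irx3-2), beside 13.5% of all tested genes, and edgeR and DESeq2 on recovered reads also called 0. Without wild type replicate 2 on MS, which leaves the library in which WRKY46 was at 0, limma called WRKY46 (4.18, adjusted p = 0.0369).

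On lincomycin 4 of the 52 members differed between the genotypes, or 7.69%, beside 5.68% of all tested genes (3.35% higher and 2.33% lower in irx3-2). WRKY70, WRKY33 and WRKY40 were lower and WRKY44 was higher in irx3-2. The median difference was −0.17 in the family and 0.01 in all genes. The authors' deposited table of the same comparison gave an adjusted p for 35 of the 72 members. It also called these 4 and no other of the 35, with 8.62% of its genes called. In the authors' deposited tables of lincomycin against MS, 14 members were called in wild type (beside 23.5% of its genes) and 13 in irx3-2 (beside 27.7%), of which 13 and 13 were called by limma. The other one was WRKY24, which was too low for the limma test. Of limma's calls, WRKY11, WRKY17, WRKY21 and WRKY57 in wild type were not called by the authors (DESeq2 adjusted p = 0.0590 to 0.0955). Nor were WRKY9, WRKY22, WRKY40 and WRKY70 in irx3-2 (DESeq2 adjusted p = 0.0549 to 0.109). The fall of WRKY70 in irx3-2 was −0.74 by the authors' fit and had the DESeq2 adjusted p of 0.109. The authors' deposited table for MS called 0 of the 38 members that had an adjusted p there, beside 0.801% of its genes.

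WRKY70, a group III gene that promotes salicylate responses and restrains jasmonate responses and senescence, lies on chromosome 3 at 20908711 to 20910623 (TAIR10.1). It had 70.5 and 68.4 normalized counts in wild type on MS, 202 and 148 in wild type on lincomycin, 89.5 and 65.5 in irx3-2 on MS and 45.4 and 45.1 in irx3-2 on lincomycin. The wild type libraries on lincomycin were the highest of the 8 and those of irx3-2 on lincomycin the lowest, with no overlap. WRKY70 was 3.76-fold lower in irx3-2 on lincomycin (log2 −1.91, SE 0.26, limma adjusted p = 0.00293), a call lost only without wild type replicate 1 on lincomycin (adjusted p = 0.0722). It rose in wild type by 1.30 (SE 0.26, adjusted p = 0.00359, or 0.0674 without that library). In irx3-2 it fell by 0.75 (SE 0.26, adjusted p = 0.0494), a call lost in 5 of the 8 fits without 1 library. These were the fits without either library of wild type or of irx3-2 on lincomycin and that without irx3-2 replicate 1 on MS, with adjusted p up to 0.194.

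WRKY70 was the 1 member whose response to lincomycin differed between the genotypes, beside 0.657% of all tested genes (0.356% with a higher and 0.301% with a lower response in irx3-2). The response in irx3-2 minus that in wild type was −2.05 (SE 0.37, limma adjusted p = 0.0390). The direction held in all 8 fits without 1 library, at −2.27 to −1.83, but the call held in 2 of them, those without a library of irx3-2 on MS. It was lost without any 1 of the other 6, with adjusted p up to 0.268. At an unadjusted p below 0.05 there were 9 members, beside 12.6% of all tested genes.

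**Figure D4:**
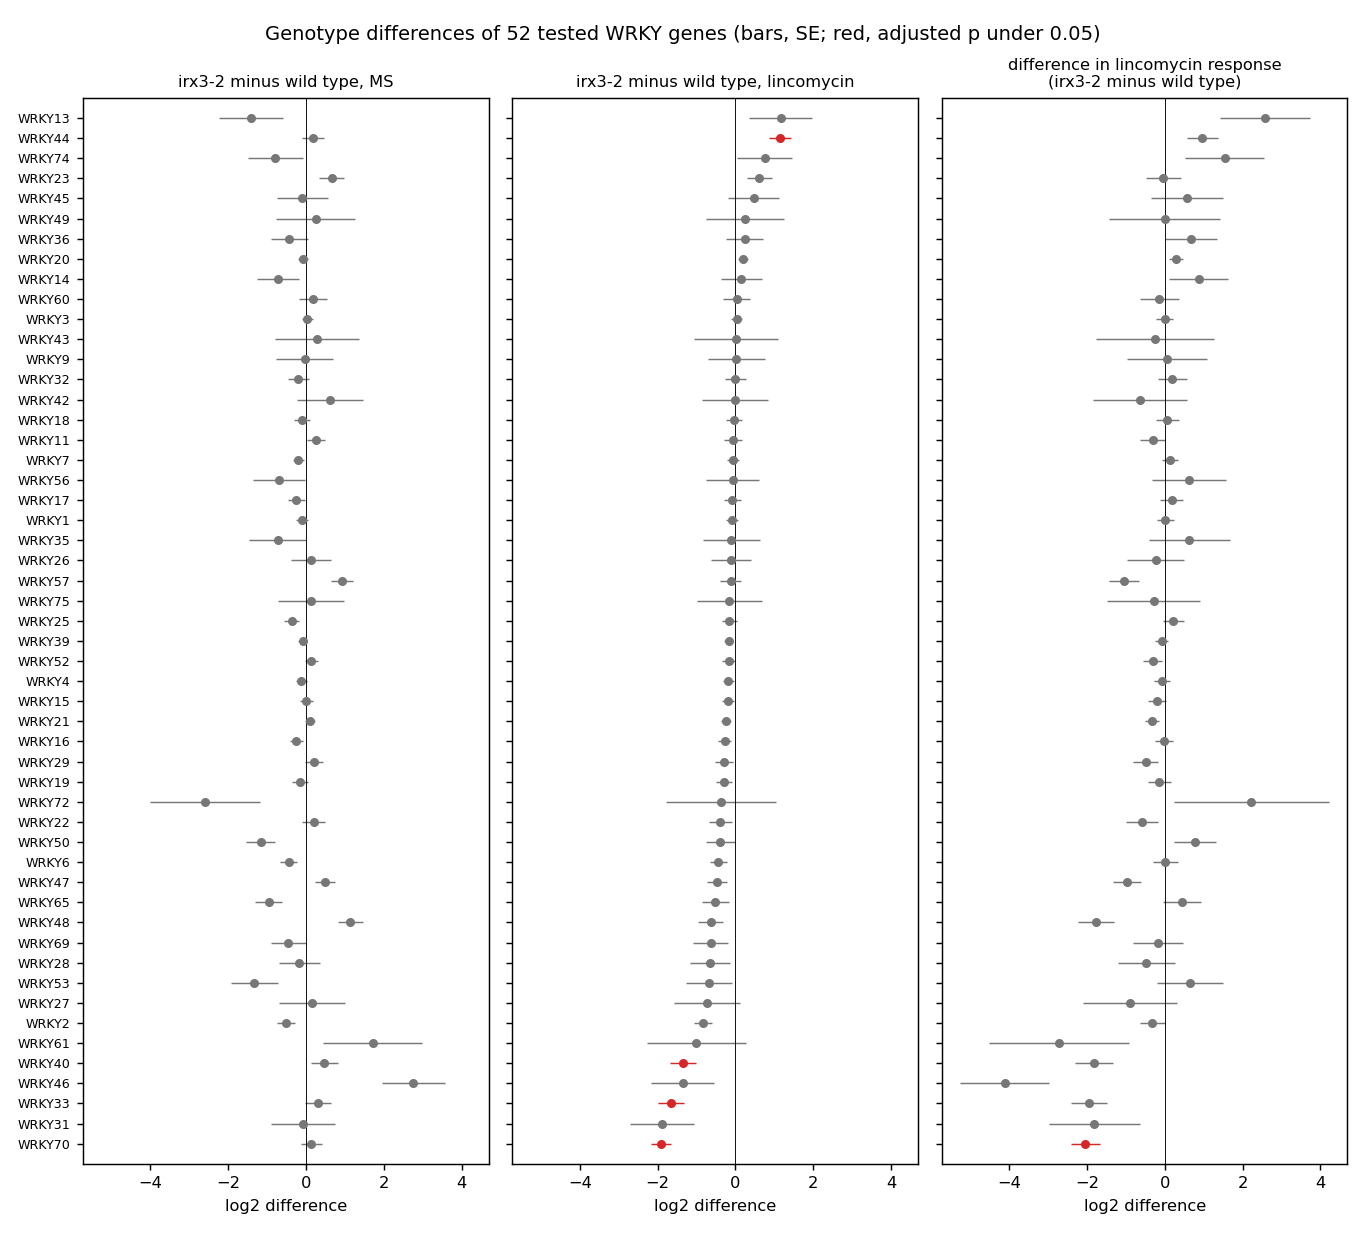
Log2 differences of the 52 tested WRKY genes between irx3-2 and wild type on MS (left) and on lincomycin (middle), and the lincomycin response in irx3-2 minus that in wild type (right), with standard errors as bars and genes in the order of the middle panel. Red points passed limma's adjusted p of 0.05: none on MS, WRKY70, WRKY33, WRKY40 and WRKY44 on lincomycin, and WRKY70 on the right.

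WRKY33, the group I regulator of camalexin synthesis and of resistance to Botrytis that MPK3 and MPK6 phosphorylate, lies on chromosome 2 at 16108235 to 16110766. It had 176 and 137 normalized counts in wild type and 175 and 211 in irx3-2 on MS, 158 and 331 in wild type on lincomycin and 58.2 and 89.5 in irx3-2 on lincomycin. The wild type libraries on lincomycin lay far apart, and both exceeded those of irx3-2. The difference was 3.14-fold (log2 −1.65, SE 0.33, limma adjusted p = 0.0177). It was not called without wild type replicate 3 or without either irx3-2 library on lincomycin (−2.18 to −1.12 over the fits without 1 library, adjusted p up to 0.210). WRKY33 fell on lincomycin in irx3-2 (−1.40, SE 0.33, adjusted p = 0.00783, or 0.0905 without irx3-2 replicate 2), and the difference between the responses, −1.96 (SE 0.47), had an adjusted p of 0.101 by limma and 0.00341 by DESeq2. Of the members called between the genotypes on lincomycin, WRKY33 alone had W boxes in its upstream window. At least 2 W boxes were found in the windows of 10 of the 72 members, and any bearing on the level of WRKY33 was not tested.

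WRKY40 lies on chromosome 1 at 30383561 to 30385499. It had 56.7 and 33.5 normalized counts in wild type and 53.7 and 69.0 in irx3-2 on MS, 67.1 and 89.7 in wild type on lincomycin and 29.1 and 30.7 in irx3-2 on lincomycin. The last 2 libraries were the lowest of the 8. WRKY40 was 2.54-fold lower in irx3-2 on lincomycin (log2 −1.35, SE 0.34, limma adjusted p = 0.0472). It also fell on lincomycin in irx3-2 (−1.0, SE 0.34, adjusted p = 0.0448). The first call was lost without any 1 of the 4 libraries on lincomycin (adjusted p up to 0.401), and the second was lost in 5 of the 8 fits (adjusted p up to 0.173), without those 4 or irx3-2 replicate 2 on MS. The difference between the responses was −1.82 (SE 0.49, adjusted p = 0.136).

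WRKY44, known as TTG2 for its roles in trichomes and in the mucilage and tannins of the seed coat, lies on chromosome 2 at 15644811 to 15647076. It had 78.1 and 49.5 normalized counts in wild type and 84.0 and 60.2 in irx3-2 on MS, 84.1 and 71.3 in wild type on lincomycin and 165 and 182 in irx3-2 on lincomycin. The 2 libraries of irx3-2 on lincomycin stood above all others. WRKY44 was 2.22-fold higher in irx3-2 on lincomycin (log2 1.15, SE 0.28, limma adjusted p = 0.0407), a call lost without any 1 of the 4 libraries on lincomycin (adjusted p up to 0.327), and it rose on lincomycin in irx3-2 (1.27, SE 0.28, adjusted p = 0.00569, or 0.0535 without irx3-2 replicate 3). The trichome genes that act with or beside it did not rise: in irx3-2 GL1 (−3.04, SE 0.74, lost in 2 of the 8 fits without 1 library) and TRY (−2.53, SE 0.60, lost in 1) fell on lincomycin, and none of GL1, GL3 and TRY passed the test between the genotypes.

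The proteins that act on WRKY factors were measured as a list of 9 genes, of which 6 were tested. MPK3 was lower in irx3-2 than in wild type on lincomycin (−1.22, SE 0.16, limma adjusted p = 0.00241, or 0.0552 in the 1 fit without 1 library that lost the call) and fell on lincomycin in irx3-2 (−1.66, SE 0.16, adjusted p = 2.00e-05). It had 424 and 340.4 normalized counts in wild type and 536 and 701 in irx3-2 on MS, 450.2 and 455 in wild type on lincomycin and 196 and 192 in irx3-2 on lincomycin. Its response differed between the genotypes (−1.91, SE 0.23, adjusted p = 0.00555), though this call was lost in 4 of the 8 fits without 1 library. MPK4, MPK6 and MKS1, which holds WRKY33 in a complex with MPK4, did not pass any test, and SIB2, a VQ partner of WRKY33, was at 0 in all libraries. HDA19, a histone deacetylase that binds WRKY38 and WRKY62, rose by 0.56 in wild type and 0.66 in irx3-2. CHLH, the magnesium chelatase subunit that binds WRKY40, fell by 1.92 and 1.49.

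Among 12 salicylate and pathogen response genes 7 were tested. On lincomycin 1 rose and 2 fell in wild type, and none rose and 2 fell in irx3-2. Of all tested genes, 12.0% rose and 17.2% fell in wild type, and 15.8% rose and 18.0% fell in irx3-2. With 7 genes these shares were not compared by a test. Beside EDS5, the falls were those of ICS1 in wild type (−0.70, SE 0.23, limma adjusted p = 0.0400) and PAD4 in irx3-2 (−0.76, SE 0.27, limma adjusted p = 0.0497). Neither of these calls held in every fit without 1 library. CBP60G, a calmodulin-binding activator of salicylate synthesis, rose in wild type (1.47, SE 0.29, limma adjusted p = 0.00316, or 0.0536 in the 1 of 8 fits without 1 library that lost the call) and was lower in irx3-2 than in wild type on lincomycin (−1.75, SE 0.29, adjusted p = 0.00740, lost in 3 of these fits with adjusted p up to 0.144). The difference between its responses was −2.18 (SE 0.41, adjusted p = 0.0458, lost in 7 of the 8, adjusted p up to 0.340). EDS5, the transporter that exports the salicylate precursor from plastids, fell by 1.47 in wild type and 1.83 in irx3-2. The output genes PR1, PR2, PR5 and FRK1 were too low to test. CBP60G, MPK3 and WRKY70 were each called in both the genotype difference on lincomycin and the interaction. Both comparisons use the same libraries on lincomycin.

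Of 4 camalexin genes, which include known targets of WRKY33, PAD3 and CYP79B2 were tested. PAD3 fell by 1.86 in wild type and 1.88 in irx3-2, and CYP79B2 by 1.21 and 1.37. The calls of PAD3 were lost in 2 and 1 of the 8 fits without 1 library. WRKY33 did not pass the test in wild type, and neither PAD3 nor CYP79B2 passed the test between the genotypes on lincomycin, where WRKY33 did. Of 3 phosphate transport genes under WRKY6, WRKY42, WRKY45 and WRKY75, PHT1;1 fell by 2.28 in wild type and 2.14 in irx3-2, and PHT1;4 fell by 0.56 and 0.73. PHO1, which WRKY6 represses, was lower in irx3-2 on lincomycin (−0.64, SE 0.15, limma adjusted p = 0.0368), a call lost in 4 of the 8 fits without 1 library (adjusted p up to 0.304). That of PHT1;4 in wild type was lost in 3. WRKY6 itself fell by 1.03 and 1.02, and WRKY42, WRKY45 and WRKY75 did not pass any test.

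Of 5 alternative oxidase and organelle stress genes tested, 3 rose on lincomycin in wild type and 4 in irx3-2. Of all tested genes, 12.0% rose in wild type and 15.8% in irx3-2. Whether WRKY40 or WRKY63 acts on the listed genes here was not tested. AOX1A, the alternative oxidase of mitochondria, rose by 1.53 and 1.76, and it was higher in irx3-2 than in wild type on lincomycin (0.57, SE 0.12, limma adjusted p = 0.0249, lost in 4 of the 8 fits without 1 library). UPOX rose by 5.24 and 6.24, and BCS1 rose by 1.01 in irx3-2 (lost in 3 of the 8). WRKY63 had at most 3.53 normalized counts in any library and was not tested. Of 5 abscisic acid response genes, ABI4, which WRKY18, WRKY40 and WRKY60 are known to bind, rose in irx3-2 (3.73, SE 1.14, adjusted p = 0.0278, lost in 5 of the 8 fits without 1 library), whereas RAB18 fell in irx3-2 (−1.29, lost in 7 of the 8 fits). RD29A fell in wild type (−1.01, lost in 6 of the 8 fits, adjusted p up to 0.177) and in irx3-2 (−1.47, lost in 1, adjusted p = 0.0501). Of 5 senescence genes, SAG12, the classical late marker, was at 0 in all libraries. SAG101 rose by 1.59 and 1.52, and ORE1, a NAC regulator of leaf senescence, fell in irx3-2 (−2.17, SE 0.67, adjusted p = 0.0284, lost in 3 of the 8 fits). WRKY53, a WRKY regulator of leaf senescence, did not pass any test. Another gene covers 22.5% of its exon bases, and how reads in such overlaps were counted is not given.

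Because irx3-2 affects secondary walls, WRKY12 and WRKY13, known for the control of secondary walls and lignin in stems, were looked at after their values had been seen. WRKY12 had at most 4.71 normalized counts in any library and was not tested. WRKY13 had 12.3 and 26.2 in wild type and 2.75 and 12.4 in irx3-2 on MS, and 2.35 and 8.61 in wild type and 9.94 and 13.7 in irx3-2 on lincomycin. Its groups did not overlap between the media in wild type or between the genotypes on lincomycin, but no comparison passed the test.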

How the data were processed

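Total RNA of 8 seedling libraries, 2 per group, was sequenced with an Illumina kit. The genome was TAIR10, and featureCounts, TopHat2 2.1.1, DESeq2, FastQC and Trimmomatic were used, per the submitters' processing notes. The strand setting, the treatment of reads with several matches and the annotation version are not given in the sources used here. Per the file headers, the authors deposited 4 pairwise tables that hold a signal (read counts divided by each library's size factor, called normalized counts here), log2 fold changes with standard errors, and the Wald score of DESeq2 with its p-value, raw and adjusted. All values were whole multiples of 1 number per library within 0.01, so reads were recovered by division.

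The 20251 genes with 10 or more normalized counts in 2 or more libraries were tested with limma 3.58.1 in R 4.3.3, with a mean-variance trend, on log2(normalized count + 1). All 8 libraries entered 1 fit of 4 group means with 4 residual degrees of freedom. Adjustment was by Benjamini-Hochberg across these genes (threshold 0.05), and fold changes understate low genes. Alternatives were pseudocounts of 0.5 and 5, 2 other filters, edgeR 4.0.16 and DESeq2 1.42.0 on recovered reads, scaling on nuclear genes, a common prior variance, a replicate block and leaving out each library. Scripts were tested on simulated data. Members, subgroups and gene lists were chosen with earlier results of these data known. Members named with every library's value were those called with an absolute log2 change of at least 1 (up to 10 per comparison), those called between genotypes or in the interaction, subgroup IIa and the 3 highest per kb. WRKY7, WRKY12, WRKY13 and WRKY24 fall outside that rule and were chosen after their values were seen. Positions, exon lengths, protein features and upstream windows came from RefSeq TAIR10.1.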

Additional observations from a re-analysis of the deposited data

Results flagged for a closer look

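The response of WRKY70 to lincomycin differed between the genotypes by the test of the difference itself: irx3-2 minus wild type was −2.05 on the log2 scale (SE 0.37, limma adjusted p = 0.0390). The call was lost in 6 of the 8 fits without 1 library (adjusted p up to 0.268), with no filter on low counts, with a common prior variance and with the replicate number as a block. WRKY70 rose in wild type (1.30) and fell in irx3-2 (−0.75), where the fall was lost in 5 of the 8 fits. With 2 libraries per group no sample could be tested for standing apart from its group.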

How the results depend on the processing

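The 27 single-gene results are the calls of the members named by the rule given under the processing. The remaining calls are left out, among them those of WRKY11, WRKY17, WRKY21, WRKY47 and WRKY57 in wild type, so the 27 do not describe the whole family. No call among the 27 single-gene results reversed in 457 refits: 381 kept their side of the threshold and 76 lost it, 48 of these with 1 library left out. For lincomycin in wild type the member count of 17 was 7 to 19 with 1 library left out, and in irx3-2 it was 8 to 19. For irx3-2 on MS it was 0 to 1. For irx3-2 on lincomycin the 4 became 1 to 5 with 1 library left out, 1 with no filter on low counts, 1 with a common prior variance and, with edgeR, 5 (WRKY2 added, adjusted p = 0.0343). The 1 of the interaction became 0 to 2 with 1 library left out, 0 with no filter, 0 with a common prior variance and 3 with DESeq2 (WRKY33, WRKY48 and WRKY70). The cause was not tested, though leaving out a library leaves its group with 1, assumed to vary like the others. Over all genes, the interaction gave 133 calls in the main analysis, 29 with no filter, 12 with a common prior variance and 376 with DESeq2. Irx3-2 on lincomycin gave 1150, 580 with no filter and 131 with a common prior variance. Irx3-2 on MS gave 44, 4, 13 and, with DESeq2, 136. Scaling on nuclear genes moved no library by more than 0.01 on the log2 scale.

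The replicate numbers pair no compared groups fully, since no 2 of them share both numbers. Wild type on MS and irx3-2 on lincomycin do, with a correlation of −0.106 over genes. With the replicate number as a block, which leaves 2 residual degrees of freedom, 11 members were called for lincomycin in wild type, 15 in irx3-2, 0 for irx3-2 on MS, 2 (WRKY33 and WRKY70) for irx3-2 on lincomycin and 0 for the interaction. Over all genes the block left 337 calls for irx3-2 on lincomycin, 18 on MS and 24 for the interaction. Its counts over all genes for lincomycin against MS are not given here.

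Low counts limit part of the family: 20 members could not be tested, and 9 of the tested ones averaged under 10 normalized counts. What part depth had in this was not tested.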
